A study of Mus musculus with 28 samples.

Results

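Cartilage of sham-operated mouse knees was compared between 1 week and 6 weeks after the operation, on the 6 arrays out of 28 in the series whose source field names cartilage and whose titles name a sham operation and a week. Each week had 3 arrays, and each array held RNA pooled from 3 mice, so that 18 mice contributed. The mice were male C57BL6 aged 10 to 12 weeks at surgery; in the sham operation of both knees the medial menisco-tibial ligament was looked at and left uncut, and all joints were flushed with saline. Cartilage of the medial tibial plateau was cut from frozen sections by laser and its miRNAs were measured on Agilent mouse miRNA arrays. The 6 cartilage arrays of mice with destabilization of the medial meniscus (DMM), in which that ligament was cut, followed the same weeks, ages, strain and pooling and served for comparison, as did 8 sham arrays of the bone under the cartilage, each from 1 mouse. No group without an operation was used here, and the mice taken at 6 weeks were also 5 weeks older than those taken at 1 week, so that time since the operation and age cannot be told apart.

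A miRNA is a short RNA that guides a silencing complex to messenger RNAs, mainly by pairing of its seed, bases 2 to 8 from its 5′ end, and miRNAs with one seed can share targets. Articular cartilage holds a single cell type, the chondrocyte, in a matrix of collagen and proteoglycan without blood vessels, and miR-140 is the miRNA best known for marking it. A sham operation opens and closes the joint capsule and is itself a wound that heals. Of miRNAs named below, the miR-17-92 cluster and its paralogs are known for promoting proliferation and the miR-29 family for silencing collagen messenger RNAs.

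Sequences of some miRNAs named below are shown with the seed in capitals. Members of the groups higher at 6 weeks come first and 4 of those lower at 6 weeks last. The sequences were read from RefSeq (GRCm38.p6), which matched 364 of the 438 measured miRNAs by name and 16 of the 20 described individually below. The only miRNA that passed the threshold in sham, miR-1957b, was not matched and is not shown.
miR-20a-5p: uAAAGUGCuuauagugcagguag
miR-20b-5p: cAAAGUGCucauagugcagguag
miR-106b-5p: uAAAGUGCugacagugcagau
miR-93-5p: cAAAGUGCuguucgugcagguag
miR-92a-3p: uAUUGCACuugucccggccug
miR-29a-3p: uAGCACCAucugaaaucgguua
miR-29b-3p: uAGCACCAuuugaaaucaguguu
miR-29c-3p: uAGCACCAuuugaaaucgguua
miR-451a: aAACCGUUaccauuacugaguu
miR-8117: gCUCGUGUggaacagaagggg
miR-8090: gAAGCGCAguggaggucugu
miR-6969-5p: cAGCAGAGuagggagcaaaaga
miR-3968: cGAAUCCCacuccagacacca
miR-20a-5p, miR-20b-5p, miR-106b-5p and miR-93-5p share 1 seed and the 3 miR-29 guides another. miR-20a-5p and miR-20b-5p differ at 2 of 23 positions and miR-29a-3p and miR-29c-3p at 1 of 22, and how far an array probe separates such pairs was not tested.

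Signals are log2 values as deposited, and a difference of 1 is a doubling. The 438 miRNAs with a value on all 12 cartilage arrays were tested. Sham arrays of the same week correlated with each other, over these miRNAs, at 0.967 to 0.993, and arrays of different weeks at 0.964 to 0.989. The median SD within a week was 0.169, and the array medians were 6.26 to 6.32. The label fields disagree on the tissue, since the source field names cartilage and another names subchondral bone. All 4 listed cartilage miRNAs were measured, and miR-140-3p was at 13.40 to 13.74 on the 6 sham arrays against 9.04 to 9.98 on the 8 sham bone arrays, although it is unknown here whether both tissues were normalized together. No slide or scan was known for the arrays, so their part in any difference between weeks was not tested.

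Between the weeks 1 miRNA passed an adjusted p of 0.05 in limma, 0.228% of those tested. That miRNA, miR-1957b, had log2 signals of 5.78, 5.72 and 5.85 at 1 week and 6.29, 6.34 and 6.41 at 6 weeks. Every array of 6 weeks lay above every array of 1 week. The group means were 5.78 ± 0.06 and 6.35 ± 0.06 (SD, n = 3 each), and miR-1957b rose by 0.56 ± 0.09 (SE, log2), or 1.48-fold, with an adjusted p of 0.0269 in limma. In DMM cartilage it was at 5.62, 5.78 and 5.67 and then at 6.19, 6.03 and 5.99, again without overlap, and rose by 0.38 ± 0.09 (adjusted p 0.0407). In tissue measured as a whole, a change in the share of a cell type and a change of RNA per cell cannot be told apart, here and in the comparisons that follow. The call in sham rested on few arrays. It was lost without any 1 of the sham arrays of 1 week (adjusted p 0.186, 0.123 and 0.0772 for replicates 1, 2 and 3), without sham replicate 2 or 3 of 6 weeks (0.0746 and 0.197), and without DMM replicate 3 of 1 week or DMM replicate 2 of 6 weeks (0.0561 and 0.0553), which lend their spread to the fit. With the 6 sham arrays fitted alone it had an adjusted p of 0.138, while its difference stayed between 0.53 and 0.60 with any 1 array left out.

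Without adjustment, a p under 0.05 was reached by 77 miRNAs, 17.6% of those tested, 41 higher (9.36%) and 36 lower (8.22%) at 6 weeks. That number was 45 without sham replicate 1 of 1 week and 51 without sham replicate 3 of 6 weeks. For 56 miRNAs (12.8%) the 3 arrays of 6 weeks all lay above those of 1 week, and for 45 (10.3%) all lay below. Over all 438 the difference was above 0 for 200 (45.7%) and below 0 for 238 (54.3%), with a median of -0.01. How the calls divide by direction moved with the scaling of the arrays: 45 higher and 25 lower with arrays centred on the 75th percentile, and 35 higher and 46 lower with arrays centred on the median. The 20 miRNAs described individually are the 10 with the smallest p in each direction, and the arrays of the weeks did not overlap for any of them, which that choice favours.

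**Figure D1:**
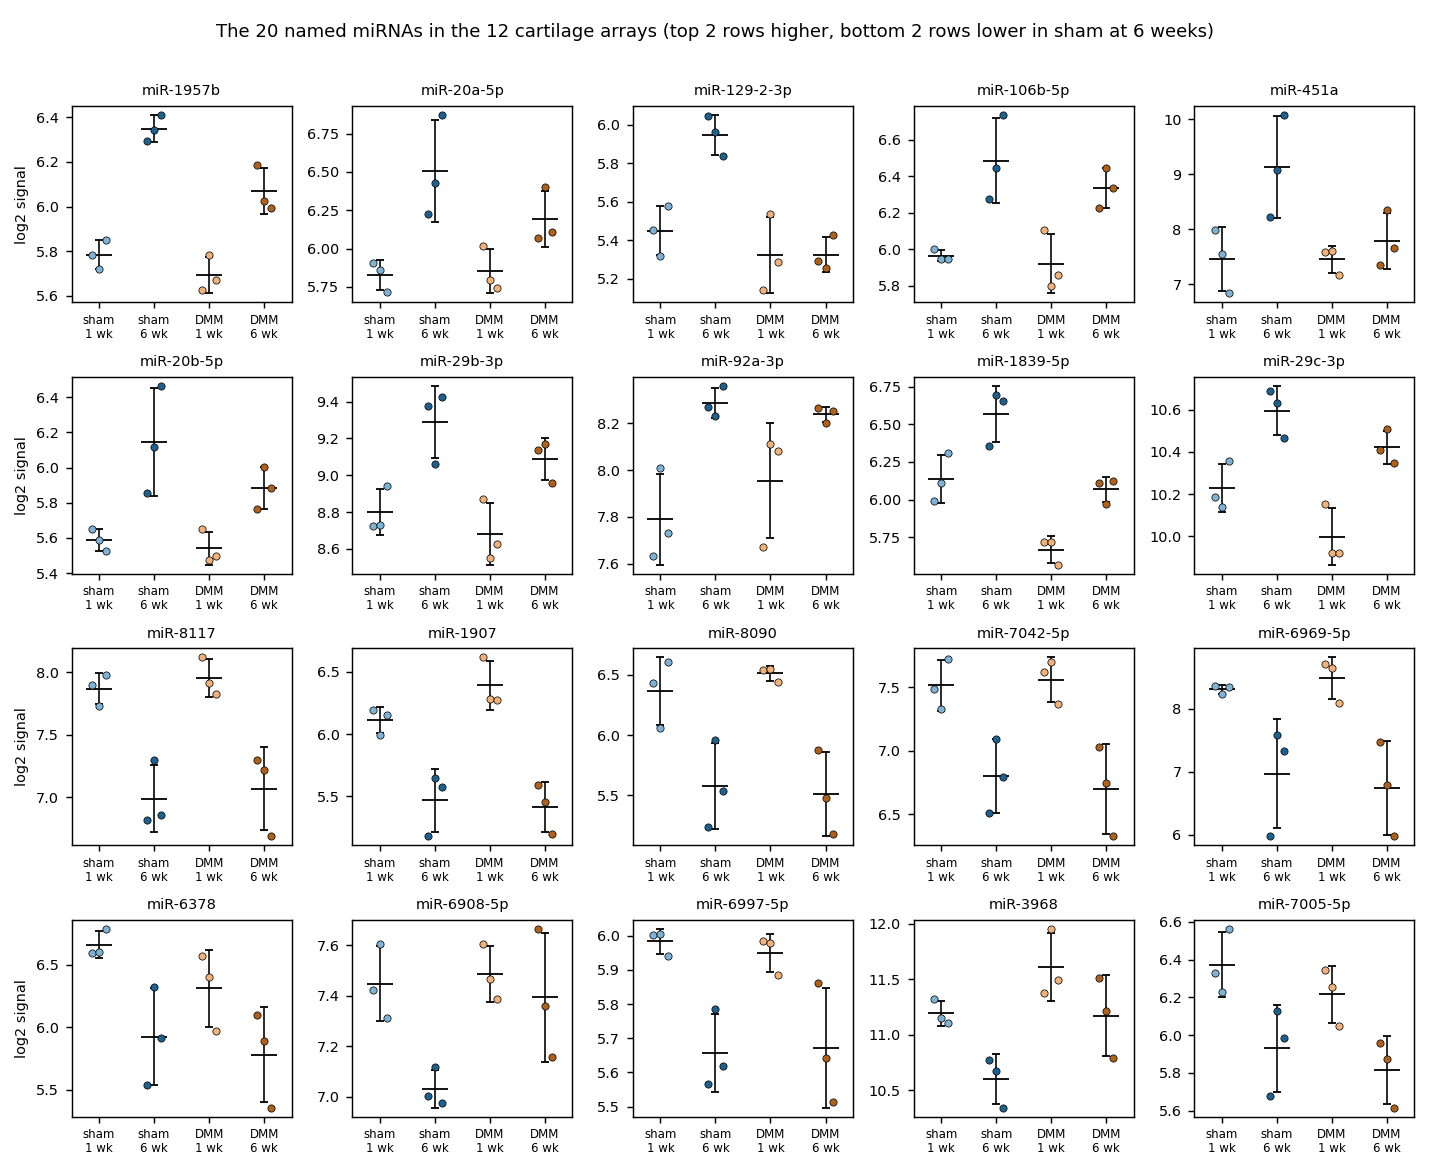
Log2 signal (y axis, scale set per panel) of the 20 miRNAs with the smallest p in sham cartilage, by group (x axis), with 1 point per array and the mean and SD over 3 arrays as bar and whiskers. In sham, none of the 20 has overlapping weeks. In DMM, 8 of the 10 higher and 7 of the 10 lower also have weeks that do not overlap, against 13% of all miRNAs in each direction. The p used for the choice took its spread from the DMM arrays too. A small spread favours both the choice and weeks without overlap, so these counts are not independent of the choice.

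The miR-17-92 cluster and its paralogs were on the higher side throughout. All 8 measured members (13 were listed) had a positive difference, against 45.7% of all miRNAs, with a median of 0.49, and 6 of the 8 had weeks that did not overlap, against 12.8% of all. miR-20a-5p, from the cluster on chromosome 14, was at 5.90, 5.86 and 5.72 at 1 week and 6.22, 6.43 and 6.87 at 6 weeks. Replicate 3 of 6 weeks was the highest and the weeks did not overlap. Its difference was 0.68 ± 0.16 (SE), with an adjusted p of 0.0989 in limma. miR-20b-5p, from the cluster on the X chromosome, was at 5.65, 5.59 and 5.53 and then at 5.85, 6.11 and 6.46, a difference of 0.56 ± 0.14 (adjusted p 0.0989). For miR-106b-5p, from the cluster within the span of Mcm7, a gene for a subunit of the replicative helicase, the values were 6.00, 5.95 and 5.95 and then 6.28, 6.44 and 6.74, a difference of 0.52 ± 0.13 (adjusted p 0.0989). In all 3 the arrays of 6 weeks kept one order, replicate 3 above replicate 2 above replicate 1, and the arrays of 1 week lay close together. miR-92a-3p, which has another seed and is encoded in both the chromosome 14 and the X clusters, was at 7.63, 8.01 and 7.73 and then at 8.27, 8.23 and 8.36, a difference of 0.50 ± 0.13 (adjusted p 0.109). Here the arrays of 6 weeks were close and those of 1 week more spread. Of the other members, miR-19b-3p differed by 0.48, miR-19a-3p by 0.37, miR-93-5p by 0.31 and miR-25-3p by 0.22.

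Read by position, members of all 3 clusters lay on the positive side. RefSeq places the miR-17-92 cluster at chr14:115043684-115044496 (GRCm38.p6), where 4 of 11 arms were measured, the miR-106a-363 cluster at chrX:52741697-52742563 (3 of 11 arms) and the miR-106b-25 cluster at chr5:138165332-138165807 (3 of 6 arms). Every measured arm had a positive difference in sham and in DMM, with sham medians of 0.49, 0.50 and 0.31. miR-19b-3p and miR-92a-3p come from copies in both the first and second cluster and count in each. The summed signal of the 8 members, on the log2 scale, was 9.59 to 9.66 on the arrays of 1 week and 9.91 to 10.21 on those of 6 weeks. In DMM it was 9.56 to 9.63 and then 9.84 to 9.93.

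Of the blood cell lists, all 2 red cell and 3 white cell miRNAs measured had a positive difference (45.7% of all miRNAs). For 3 of the 5 all 6-week arrays lay above (12.8% of all), and 0 of the 5 passed. miR-451a, the main miRNA of red blood cells, was at 8.00, 7.54 and 6.84 at 1 week and 8.23, 9.07 and 10.09 at 6 weeks. The weeks did not overlap, replicate 3 of 6 weeks was the highest, and the values within a week spread more than for any miRNA described above. Its difference of 1.67 ± 0.42 (SE), or 3.19-fold, did not pass (adjusted p 0.0989 in limma). miR-486a-5p, a red cell miRNA as well, was at 5.73, 5.82 and 5.79 and then at 5.94, 6.35 and 6.28, a difference of 0.41 ± 0.14 (adjusted p 0.181). miR-142a-3p, found across white blood cells, was at 5.70, 5.74 and 5.26 and then at 5.82, 6.36 and 7.53, a difference of 1.00 ± 0.33 (adjusted p 0.175). Replicate 3 of 6 weeks again stood highest and replicate 1 lay only slightly above the arrays of 1 week. miR-223-3p, of myeloid cells, overlapped between the weeks, at 7.72, 7.92 and 6.79 at 1 week and then at 7.58, 8.34 and 9.01.

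The order of the 6-week pools in miR-451a and miR-142a-3p, replicate 1 lowest and replicate 3 highest, was also that of miR-20a-5p, miR-20b-5p and miR-106b-5p. Replicate 3 was the highest 6-week sham array for 7 of the 10 higher miRNAs described individually. These 10, and the 8 members of the miR-17-92 clusters, come from the same pools and are not separate observations. The summed red cell signal (2 of 7 listed miRNAs measured) was 7.41 to 8.27 at 1 week and 8.50 to 10.18 at 6 weeks, and the summed white cell signal (3 of 9) 8.27 to 8.78 and then 8.64 to 9.79. In DMM cartilage the red cell signal was 7.58 to 7.99 and then 7.75 to 8.55, and the white cell signal 8.21 to 8.69 and then 8.00 to 8.52, so that both overlapped between the weeks. There the 8 members of the miR-17-92 clusters kept a median difference of 0.30, 6 of 8 with weeks that did not overlap (13% of all miRNAs). Without sham replicate 3 of 6 weeks, miR-20a-5p differed by 0.50, miR-106b-5p by 0.39, miR-451a by 1.19 and miR-142a-3p by 0.52. Without sham replicate 1 of 6 weeks, the pool nearest to those of 1 week in these miRNAs, 9 miRNAs passed in place of 1, all higher: miR-1957b, miR-20a-5p, miR-20b-5p, miR-106b-5p, miR-19b-3p, miR-451a, miR-142a-3p, miR-1839-5p and miR-3535. What part blood cells in the pools have in the differences of other miRNAs was not tested.

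**Figure D2:**
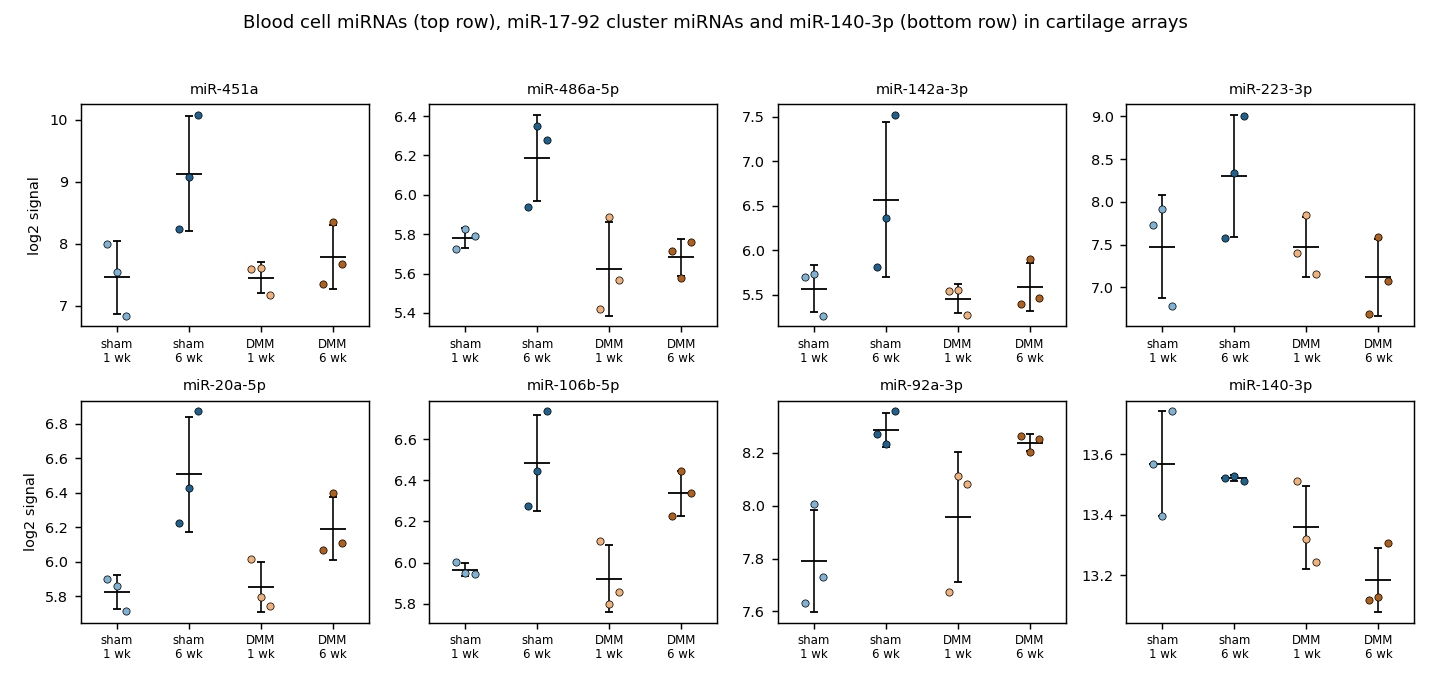
Log2 signal (y axis, scale set per panel) of 4 blood cell miRNAs, 3 members of the miR-17-92 clusters and the cartilage marker miR-140-3p, by group (x axis), with 1 point per array and the mean and SD over 3 arrays. miR-451a spans 8.23 to 10.09 in sham at 6 weeks against 7.35 to 8.35 in DMM at 6 weeks, while miR-140-3p holds between 13.51 and 13.53 in sham at 6 weeks.

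In the miR-29 family all 5 measured members (7 were listed) had a positive difference, with a median of 0.24. The weeks did not overlap for 3 of the 5 (12.8% of all), 2 of the 5 were higher with an unadjusted p under 0.05 (9.36% of all), and 0 passed. miR-29b-3p was at 8.72, 8.73 and 8.94 at 1 week and 9.38, 9.06 and 9.42 at 6 weeks, a difference of 0.49 ± 0.13 (SE, adjusted p 0.109 in limma). miR-29c-3p was at 10.19, 10.14 and 10.36 and then at 10.69, 10.63 and 10.47, a difference of 0.37 ± 0.11 (adjusted p 0.151). Its 6-week pools were ordered the other way from those of miR-451a, with replicate 1 the highest. In DMM cartilage miR-29c-3p rose, from 10.15, 9.92 and 9.92 to 10.41, 10.51 and 10.35, by 0.42 ± 0.11 (adjusted p 0.0455). miR-29a-3p, with the same seed, overlapped between the weeks in sham and differed by 0.24 ± 0.12 (adjusted p 0.306).

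Most measured members of the let-7, miR-30 and miR-26 and miR-101 lists, miRNAs abundant in differentiated cells, also had positive differences. The let-7 family had 8 of 9 members above 0, with a median of 0.15. Of the 9, 7 had weeks that did not overlap (12.8% of all), while 0 reached an unadjusted p under 0.05. Members of each list come from the same pools and are not separate observations. The 9 let-7 members share a seed, and how far array probes separate them was not tested. let-7f-5p was at 11.49, 11.54 and 11.52 and then at 11.82, 11.77 and 11.77, arrays of a week lying close together, for a difference of 0.27 ± 0.14 (adjusted p 0.318). In DMM cartilage the let-7 median was 0.33, and let-7e-5p and miR-98-5p rose, by 0.52 ± 0.12 (adjusted p 0.033) and 0.45 ± 0.11 (adjusted p 0.0356). The miR-30 family had 6 of 7 members above 0 with a median of 0.27, and the miR-26 and miR-101 list 4 of 4, also with a median of 0.27. miR-101a-3p, known for silencing the methyltransferase Ezh2, was at 6.90, 6.71 and 7.14 and then at 7.24, 7.30 and 7.22, a difference of 0.34 ± 0.12 (adjusted p 0.207). None of these families had a member past the adjusted threshold in sham.

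The remaining 2 of the 10 higher miRNAs belong to none of these groups. miR-129-2-3p was at 5.45, 5.32 and 5.58 and then at 6.04, 5.96 and 5.84, a difference of 0.50 ± 0.12 (adjusted p 0.0989). In DMM it differed by 0.0044 ± 0.12, at 5.14, 5.53 and 5.28 and then at 5.29, 5.26 and 5.43, so the weeks overlapped there. miR-1839-5p was at 5.99, 6.11 and 6.31 and then at 6.35, 6.70 and 6.65, a difference of 0.43 ± 0.12 (adjusted p 0.123). Its weeks did not overlap in DMM either, where it differed by 0.40 ± 0.12 (adjusted p 0.0769).

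Among miRNAs lower at 6 weeks, 8 of the 10 with the smallest p carry numbers of 6000 and above (27.9% of all tested), that is, entries added late to the catalogue, whose functions are little known. miR-8117 was at 7.90, 7.73 and 7.98 at 1 week and 6.82, 7.30 and 6.86 at 6 weeks. The weeks lay well apart, and the difference was -0.88 ± 0.17 (SE) with an adjusted p of 0.0612 in limma. It passed without sham replicate 2 of 6 weeks (adjusted p 0.0423), and also without DMM replicate 3 of 6 weeks. In DMM cartilage miR-8117 fell, from 8.12, 7.91 and 7.82 to 7.30, 7.22 and 6.69, with a difference of -0.88 ± 0.17 (adjusted p 0.0169). miR-1907 was at 6.20, 5.99 and 6.15 and then at 5.18, 5.65 and 5.58, a difference of -0.64 ± 0.15 (adjusted p 0.0989). It fell in DMM cartilage with a difference of -0.98 ± 0.15 (adjusted p 0.00428). miR-6969-5p, within the span of the colipase gene Clps on chromosome 17, had the largest difference of the 10, at 8.37, 8.23 and 8.34 and then at 5.98, 7.59 and 7.33. Replicate 1 of 6 weeks was far below the other pools, and the difference of -1.35 ± 0.40 (2.54-fold lower) had an adjusted p of 0.156. Without that pool the difference was -0.85. In DMM cartilage miR-6969-5p fell, from 8.71, 8.64 and 8.10 to 7.47, 6.79 and 5.98, with a difference of -1.74 ± 0.40 (adjusted p 0.0316).

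miR-8090, in the span of the cilia and flagella gene Cfap43, was at 6.43, 6.06 and 6.61 and then at 5.24, 5.95 and 5.53, a difference of -0.79 ± 0.21. miR-3968, in the span of Trim80, was at 11.32, 11.15 and 11.11 and then at 10.78, 10.68 and 10.34, a difference of -0.60 ± 0.20. Both kept the weeks apart, and in miR-3968 replicate 3 was the lowest pool of 6 weeks. Of the other 5, miR-6378 differed in sham by -0.74 and miR-7042-5p by -0.72. miR-7005-5p, in the span of the laminin gene Lama5, differed by -0.44, miR-6908-5p, in the span of the pyridoxal kinase gene Pdxk, by -0.42 and miR-6997-5p, in the span of the spectrin gene Sptan1, by -0.33. The adjusted p-values of these 7 in limma were 0.109 to 0.175, and miR-8090 and miR-7042-5p fell in DMM cartilage (adjusted p 0.022 and 0.0295). Whether an miRNA lies in an exon or an intron of its host gene was not read here. The low values came largely from the same pools: replicate 1 was the lowest 6-week sham array for 8 of the 10, and replicate 3 the lowest 6-week DMM array for 10 of the 10. They are thus not 10 separate observations. Over the whole list of 122 measured miRNAs numbered 6000 and above, 85 differed below 0 (54.3% of all miRNAs) and 37 above (45.7% of all). The median was -0.06, against -0.01 over all miRNAs. Of the 122, 19 had all 6-week arrays below (10.3% of all miRNAs) and 6 had all above (12.8% of all).

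The Dlk1-Dio3 list, from an imprinted domain with high activity in fetal tissue, had most members on the lower side in sham. Of its 29 measured members (83 were listed) 23 differed below 0 and 6 above, against 54.3% of all miRNAs below 0. The median was -0.08, between -0.12 and -0.03 with any 1 array left out, and 4 of 29 had all 6-week arrays below (10.3% of all). By sign, the list did not lean that way in DMM cartilage. There 16 of the 29 differed below 0 and 13 above, with a median of -0.03, against 263 of all 438 miRNAs below 0. By the other counts DMM was close to sham: 3 of the 29 had all 6-week arrays below (13% of all), and 1 passed lower (2.51% of all). miR-370-3p was at 6.59, 6.49 and 6.37 and then at 5.55, 6.13 and 6.23, a difference of -0.51 ± 0.17 (adjusted p 0.175). It fell in DMM cartilage with a difference of -0.73 ± 0.17 (adjusted p 0.0316). miR-127-3p, encoded antisense to Rtl1, was at 8.94, 9.05 and 9.09 and then at 8.68, 8.86 and 8.45, a difference of -0.36 ± 0.16 (adjusted p 0.267). miR-154-5p differed by -0.35 and miR-770-3p by -0.62, with no overlap of the weeks in either.

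The miRNAs that mark cartilage had differences near 0. miR-140-3p was at 13.57, 13.40 and 13.74 at 1 week and 13.52, 13.53 and 13.51 at 6 weeks, a difference of -0.05 ± 0.11 (SE, adjusted p 0.945 in limma) with a 95% interval of -0.29 to 0.20. For miR-140-5p the difference was -0.04 ± 0.15 (interval -0.36 to 0.28), for miR-455-3p -0.07 ± 0.17 (-0.45 to 0.31) and for miR-455-5p -0.01 ± 0.13 (-0.30 to 0.28). The arrays of the weeks overlapped for all 4, and their median of -0.05 lay between -0.09 and 0.03 with any 1 array left out. The summed signal of the 4 measured skeletal muscle markers, a tissue that can be carried along in knee dissection, was 7.76 to 8.82 and then 7.75 to 8.57. Of the 4, 1 had all 6-week arrays below, miR-206-3p (10.3% of all miRNAs). Of the list induced by inflammation, miR-155-5p, raised in activated immune cells, was at 5.40, 5.35 and 5.46 and then at 5.68, 5.63 and 5.71, a difference of 0.27 ± 0.09 (adjusted p 0.181), and it rose in DMM cartilage by 0.41 ± 0.09 (adjusted p 0.0295). miR-21a-5p, induced in wounds and fibrosis, was at 8.86, 8.62 and 8.58 and then at 7.94, 8.03 and 8.84, so the weeks overlapped (difference -0.42 ± 0.37, adjusted p 0.645). For miR-146a-5p, which dampens signalling to NF-kB, the difference was 0.21, and for its relative miR-146b-5p -0.11.

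**Figure D3:**
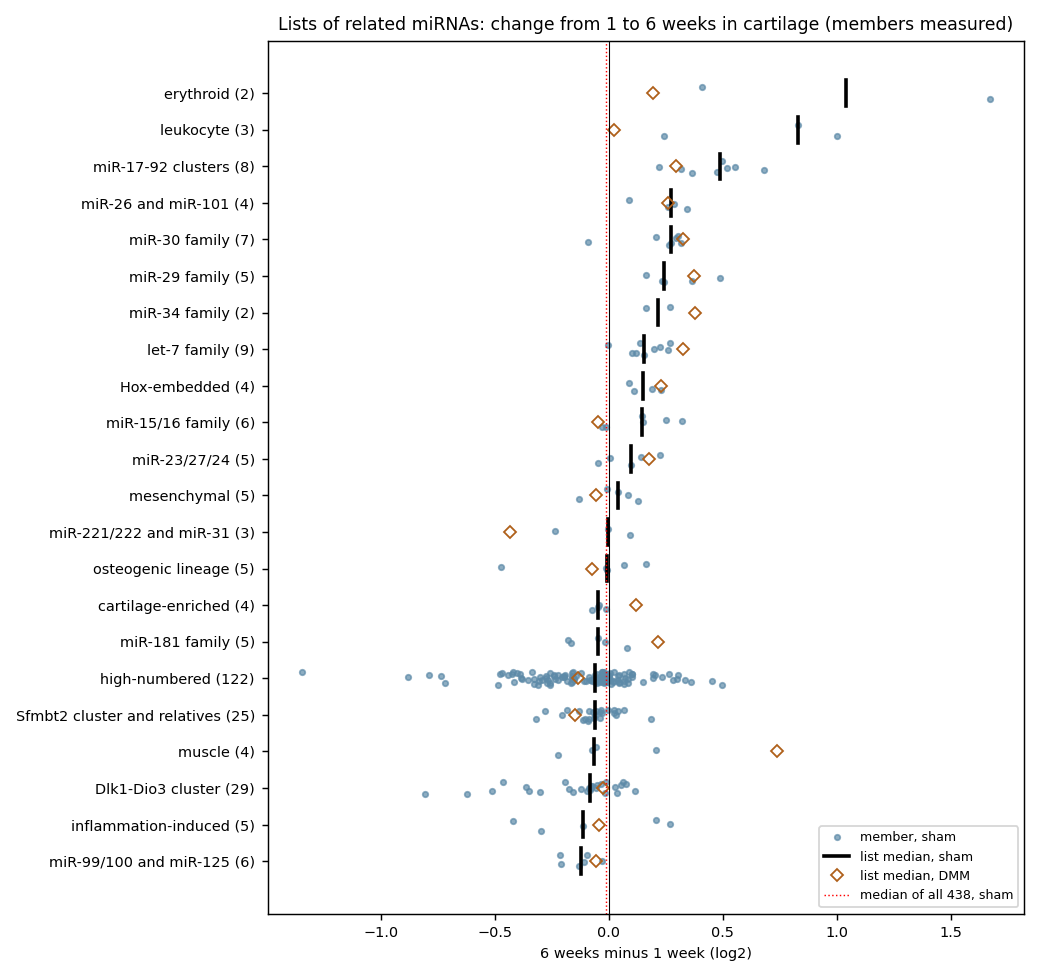
Difference between 6 weeks and 1 week (x axis, log2) for members of the lists with more than 1 measured miRNA (y axis, measured number in brackets), with the sham median as a bar, the DMM median as a diamond and the median of all 438 miRNAs in sham as a dotted line. The miR-17-92 members all lie above 0 with a sham median of 0.49, the 4 cartilage miRNAs lie between -0.07 and -0.01, and the sham and DMM medians stand farthest apart for the erythroid, leukocyte and muscle lists.

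DMM cartilage, measured in other mice and sharing no array with sham, had differences mostly of the same sign as sham. There 21 miRNAs passed (4.79% of those tested), 10 higher (2.28%) and 11 lower (2.51%). That number was 6 to 13 without any 1 of the 6 DMM arrays and 10 without sham replicate 2 of 1 week. Of these 21, 20 had the same sign in sham and 14 an unadjusted p under 0.05 there; the exception was miR-5099, at -0.20 in sham and 0.86 in DMM. Of the 77 miRNAs with an unadjusted p under 0.05 in sham, 76 had the same sign in DMM, and 50 also had such a p there, 64.9% of the sham list and 53.2% of the 94 in DMM (21.5% of those tested). The sham and DMM p-values of a miRNA came from the same fit and used the same estimate of its spread. A small spread lowers both p-values, so the 14, the 50 and the 7 given below are not counts from independent tests. The sign of a difference does not use that spread. Both operations had all 6-week arrays above for 30 miRNAs (6.85%) and all below for 28 (6.39%). Over all 438 miRNAs, 76.9% had the same sign, and the differences had a Pearson correlation of 0.71 and a Spearman correlation of 0.70, across miRNAs that share arrays and are not independent. All 20 described individually had the same sign in DMM, though miR-129-2-3p differed there by only 0.0044 ± 0.12 (SE). Of the 20, 7 passed in DMM: miR-1957b and miR-29c-3p higher, and miR-8117, miR-1907, miR-8090, miR-7042-5p and miR-6969-5p lower.

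**Figure D4:**
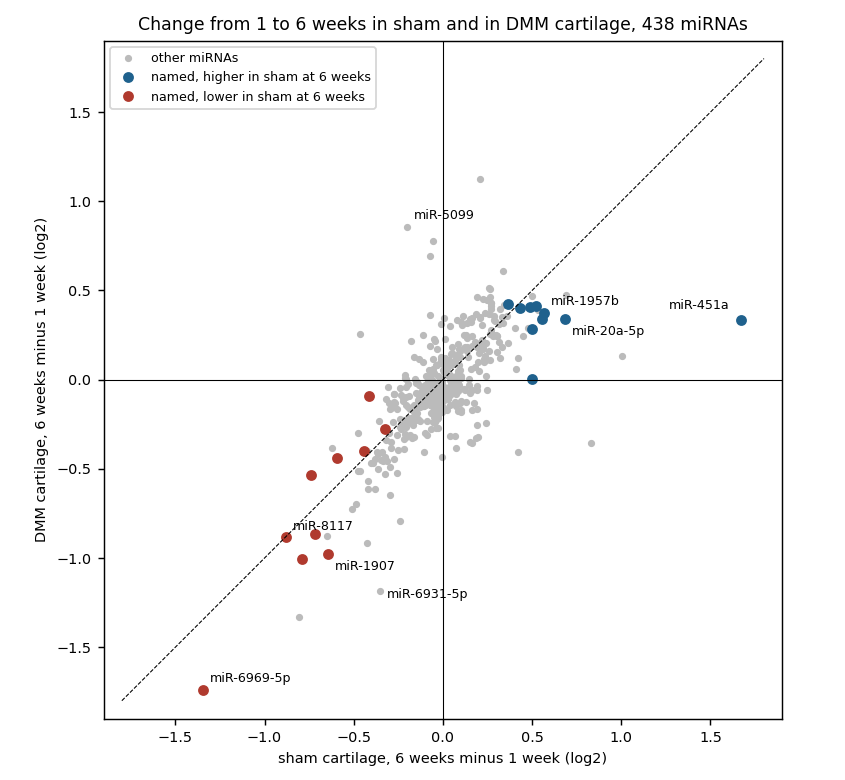
Difference between 6 weeks and 1 week in DMM cartilage (y axis, log2) against the same in sham cartilage (x axis, log2), with 1 point per miRNA, the 20 described individually in colour and the line of equal differences dashed. Of the 438 points, 76.9% have the same sign on both axes, and miR-451a lies far below it, at 1.67 in sham and 0.33 in DMM.

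The test of the difference between operations called no miRNA: 0 of 438 passed (0%), and 13 had an unadjusted p under 0.05 (2.97%). Without DMM replicate 3 of 6 weeks, or without sham replicate 2 of 1 week, 1 passed, and the 13 became 20 without sham replicate 1 of 6 weeks and 8 without sham replicate 2 of 6 weeks. For miR-451a the DMM change was lower than the sham change by 1.34 ± 0.59 (SE), with a 95% interval for the difference of -2.63 to -0.05 and an adjusted p of 0.999 in limma. For miR-1957b the interval was -0.48 to 0.10, for miR-20a-5p -0.83 to 0.15 and for miR-8117 -0.54 to 0.53. Intervals of this width do not show that the operations act alike.

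The mean of both operations over all 12 cartilage arrays was estimated as well, a comparison added after the sham and DMM results were seen. In it 77 miRNAs passed (17.6%), 43 higher (9.82%) and 34 lower (7.76%), and the number was 37 without sham replicate 1 of 1 week, 47 without sham replicate 2 of 1 week and 51 without DMM replicate 3 of 1 week. With arrays centred on the 75th percentile it was 58 higher and 28 lower. Of the 20 miRNAs above 18 passed, a count that is not independent of their choice, since the sham arrays enter both. By list, 7 of 8 measured members of the miR-17-92 clusters rose over the mean of both operations, as did 5 of 7 of the miR-30 family, 4 of 5 of the miR-29 family and 3 of 9 of the let-7 family, while 4 of 29 of the Dlk1-Dio3 list fell. Of the 122 miRNAs numbered 6000 and above, 17 fell and 2 rose. In this estimate miR-155-5p rose by 0.34 ± 0.07 (adjusted p 0.00748) and miR-451a by 1.00 ± 0.30 (adjusted p 0.0354). The miR-451a call was kept in 3 of the 12 fits that leave out 1 array, with adjusted p-values from 0.00976 to 0.0885.

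Differences in sham bone over the same weeks showed little relation to those of cartilage. In limma 0 of 490 miRNAs passed there (0%), 5 without replicate 1 of 1 week, and 54 had an unadjusted p under 0.05 (11%). Those 54 became 160 without replicate 1 of 1 week, 7 and 20 without replicates 2 and 3 of 1 week, and 12 without replicate 3 of 6 weeks. Of the 359 miRNAs measured in both tissues, 174 had the same sign (48.5%), with a Pearson correlation of -0.04 across miRNAs. Per the labels cartilage and bone came from shared mice, but which mice made up a pool is not stated there. Of the 10 higher in cartilage, 8 were measured in bone and 2 had a positive difference there (40.7% of the 359), miR-451a at 0.90 and miR-92a-3p at 0.05. miR-20a-5p differed in bone by -0.23, miR-29b-3p by -0.51 and miR-223-3p by -0.79. All 8 of the lower miRNAs measured in bone were below 0 there too (59.3% of the 359), by -0.38 for miR-6969-5p and by -0.08 for miR-7005-5p at the extremes. The test of the difference between tissues called 0 of 359 (0%), with 20 at an unadjusted p under 0.05 (5.57%), and its smallest p belonged to miR-223-3p, with a difference between tissues of 1.63 (adjusted p 0.529). That test gave the cartilage pools and the single-mouse bone arrays 1 shared spread, and with a spread per tissue the 20 became 40. Leaving out a bone array moved those 20 to 95 (replicate 1 of 1 week), 35 (replicate 1 of 6 weeks) or 12 (replicate 3 of 6 weeks). Leaving out a cartilage array moved them to 39 (replicate 1 of 6 weeks) or 13 (replicate 1 of 1 week, and likewise replicate 3 of 6 weeks).

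Base composition went with the direction of the differences. Among the named miRNAs with a sequence, the 9 higher had 34.8% to 57.1% G and C bases (median 40.9%) and the 7 lower 50% to 68.2% (median 60%), against a median of 54.5% over the 364 with a sequence. Across these 364 the Spearman correlation of G and C content with the sham difference was -0.28, and it was -0.28 with the DMM difference. Without the miRNAs numbered 6000 and above it was -0.30 in sham over 258 miRNAs. In 4 groups of rising G and C content, the median sham difference was 0.10, -0.01, -0.02 and -0.06. The part of base composition in the differences was not tested.

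**Figure D5:**
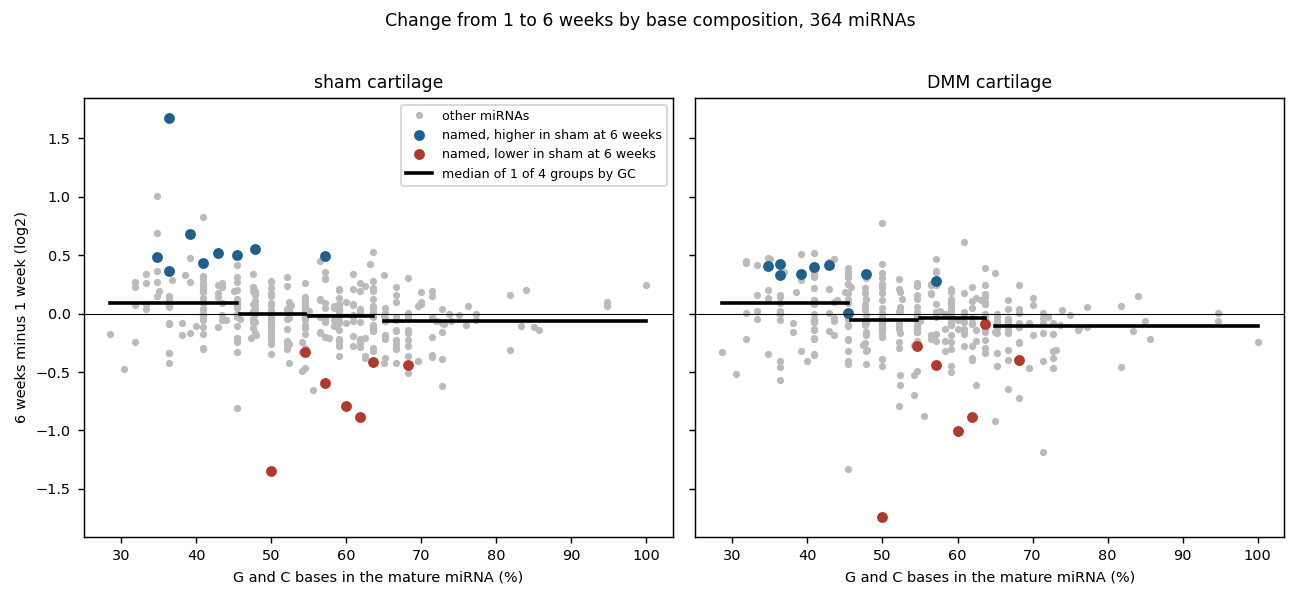
Difference between 6 weeks and 1 week (y axis, log2) against the share of G and C bases in the mature miRNA (x axis, percent), in sham and in DMM cartilage, with 1 point per miRNA, those described individually in colour, and black lines at the median of 4 groups by G and C content. The group of lowest content has a median of 0.10 in both operations and the highest a median of -0.06 in sham and -0.11 in DMM.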

How the data were processed

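Per the labels, miRNAs of laser-dissected mouse cartilage and bone were measured on Agilent arrays. The deposited table runs from 4.72 to 16.7 in cartilage, was read as log2 signal on that basis, and entered the fits without rescaling. limma 3.20.9 appears in the submitters' processing notes, and the sources used here give no background correction, normalization or row filter. The table had 0 unused sample columns.

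A group-means model was fitted to the 12 cartilage arrays with limma 3.58.1 in R 4.3.3, with empirical Bayes moderation. Benjamini-Hochberg adjustment ran over the 438 miRNAs with a value on every cartilage array, and 0.05 was the threshold. Bone sham was fitted on the 16 bone arrays and the tissue difference on all 28. P-values measure the spread between pools, and the number of arrays limits the precision. No array pair was identical. Individually described are up to 12 miRNAs per direction past the threshold, filled to 10 by the smallest p. miRNA lists, this rule and the comparison itself were chosen with earlier results of these data known. The fit was tested on simulated data. Summaries were made with Python 3.11.15 and pandas 2.3.3, figures with matplotlib 3.10.9. Alternatives changed the scaling, row filter, arrays, prior, weights and replicate block.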

Additional observations from a re-analysis of the deposited data

Results flagged for a closer look

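In sham bone at 6 weeks, 1 array stood far from the other 3 for 2 of the miRNAs described in cartilage, by Dixon's criterion for 4 arrays . For miR-6908-5p the highest array was at 7.19 and the next at 6.59, a gap of 0.967 of the range. For miR-3968 the lowest array was at 9.06 and the next at 10.42, a gap of 0.832 of the range. The criterion was applied to 38 groups of 4 arrays, and chance alone marks about 1 group in 20. The cartilage groups of 3 arrays are too small for it.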

How the results depend on the processing

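The 1 miRNA called in sham cartilage, miR-1957b, became 0 with miRNAs measured on the 6 sham arrays fitted to these, with the 6 sham arrays alone and with a replicate block, although the replicate numbers did not pair the arrays (correlations of deviations 0.10, -0.49 and -0.18). The count was also 0 with miRNAs below the median level left out and over the 359 miRNAs shared by all 28 arrays, but neither setting tests miR-1957b, whose level is below the median and which has no value in bone. It became 68 with array weights, 41 higher and 27 lower, and 77 in the mean of both operations, which was chosen after seeing the data. Leaving out 1 array gave 0 to 9. In DMM the 21 calls became 35 with quantile normalization, 34 centred on the 75th percentile, 32 with array weights and 7 with the replicate block, and 6 to 30 with 1 array left out. The difference between operations gave 1 call with quantile normalization, 1 with array weights and 0 to 1 with 1 array left out. Bone sham gave 140 calls with array weights, 78 higher and 62 lower, and 0 to 5 with 1 array left out. The mean of both operations gave 47 calls with the replicate block and 37 to 83 with 1 array left out. The cause of these changes was not tested. The difference between tissues gave 0 calls under every alternative run. In the sham comparison none of the 20 described miRNAs changed sign under an alternative in which it was tested, and across them 24 results newly passed and 10 no longer passed. Most of the 24 came with array weights and the rest with 1 array left out, while all 10 losses were of miR-1957b. Scanner background was not used here, so how far these signals lay above background was not tested. Of the 20 described, 6 of the 10 higher and 5 of the 10 lower had a mean level below the median of all miRNAs, 6.25.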
